A study of Mus musculus with 2 samples.

Results

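Acetylcholine reaches the cortex mainly through axons of the basal forebrain and acts there on muscarinic and nicotinic receptors. The muscarinic receptors are G-protein-coupled: M1, M3 and M5 (genes Chrm1, Chrm3 and Chrm5) signal through Gq and phospholipase C, while M2 and M4 (Chrm2 and Chrm4) signal through Gi and Go. Nicotinic receptors are ion channels of 5 subunits. The alpha4 and beta2 subunits (Chrna4 and Chrnb2) form the main high-affinity type of the brain, alpha5 (Chrna5) is an accessory subunit, and alpha7 (Chrna7) forms channels by itself. Acetylcholinesterase (Ache) breaks the transmitter down. These 9 receptor genes and Ache were chosen by name, 10 genes out of 21728 protein-coding genes examined.

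The chromatin at these genes was measured by DNase-seq, in which the enzyme DNase I cuts open chromatin and the cut ends are sequenced. The tissue was the left cerebral cortex, taken at 36 days of age from males of B6CASTF1/J, a first-generation hybrid of the C57BL/6J and CAST/EiJ strains, with 1 library for each of 2 animals (replicate 1 and replicate 2). The labels number the animals separately but give both the same donor entry. There was a single group, with no treated or mutant animals, so values are given per library with their spread and no test between groups was possible. For each library the deposited peak list (72021 peaks in replicate 1 and 59150 in replicate 2) gives each peak a height, and a footprint list gives short stretches inside open chromatin where cuts were depleted. Each library's heights fell on whole multiples of a fixed step, which corresponds to 160 M cuts in replicate 1 and 145 M cuts in replicate 2 if a height is a number of cuts per 1 M cuts of the library. That scale is an inference, and the 95% Poisson intervals given below for heights rest on it and cover counting error only.

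All peaks overlapping each gene body plus 10 kb on either side were taken (coordinates are 1-based, mm10). This gave 56 peaks in replicate 1 and 36 in replicate 2, which merged into 64 sites wherever they overlapped by at least 1 bp. The cortex is bulk tissue, so a low height from few open cells cannot be told apart from weak opening in many cells. Promoters of 6 of 6 marker genes of cortical excitatory neurons had a peak in both libraries, and none of 4 skeletal muscle or 4 liver markers had one in either. None of 4 microglia markers had a promoter peak, although the Cx3cr1 window held 16 peaks in replicate 1 and 9 in replicate 2. A missing promoter peak does not show that a cell type was absent. Of 6 inhibitory neuron markers, 3 had a promoter peak in replicate 1 and 1 in replicate 2, and no marker of this list had one in both. Of 4 astrocyte markers, 3 had a promoter peak in replicate 1 and 2 in replicate 2. Of 4 oligodendrocyte markers, 2 had one in replicate 1 and 3 in replicate 2. The libraries thus differ at markers of several cell types, and the part of this in the values below was not tested.

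A peak lay within 1 kb of an annotated start site at 8 of the 10 genes in replicate 1 and at 7 in replicate 2. Among all coding genes the share was 63.5% in replicate 1, 58.4% in replicate 2 and 57.7% in both, so the members' counts exceed the background share by 1 to 2 genes. Chrm1, Chrm2, Chrm3, Chrm4, Chrna7, Chrnb2 and Ache had such a peak in both libraries, Chrna4 in replicate 1 alone, and Chrm5 and Chrna5 in neither. The heights of the members with a peak had a median of 3.01 in replicate 1 and 1.62 in replicate 2, below the medians over all coding genes with a promoter peak (4.40 and 2.65 in the same order of libraries). Ache had the highest mean (3.12 ± 0.889, SD, n = 2), followed by Chrm1 (2.72 ± 1.53), Chrna7 (2.67 ± 1.30), Chrm4 (2.25 ± 0.902), Chrm3 (2.15 ± 1.40), Chrnb2 (1.14 ± 0.362), Chrm2 (0.687 ± 0.106) and Chrna4 (0.475 ± 0.671). Of the neighbours in this order, Chrnb2 and Chrm2 differed by more than either SD, and every other neighbouring pair differed by less than the larger SD of the pair. Within each library, Ache, Chrm1, Chrna7, Chrm4 and Chrm3 stood above Chrnb2, Chrm2 and Chrna4. The order depended on the window and on the start sites used. With RefSeq start sites added, the Chrm4 mean was 2.98 (4.14 in replicate 1 and 1.81 in replicate 2). That placed Chrm4 next to Ache in mean height and highest of the members in replicate 1, while the other means stayed the same. Within 500 bp of a start site the Ache mean was 2.25, below Chrm1 (2.72) and Chrna7 (2.67), and Chrm4 had no peak.

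**Figure D1:**
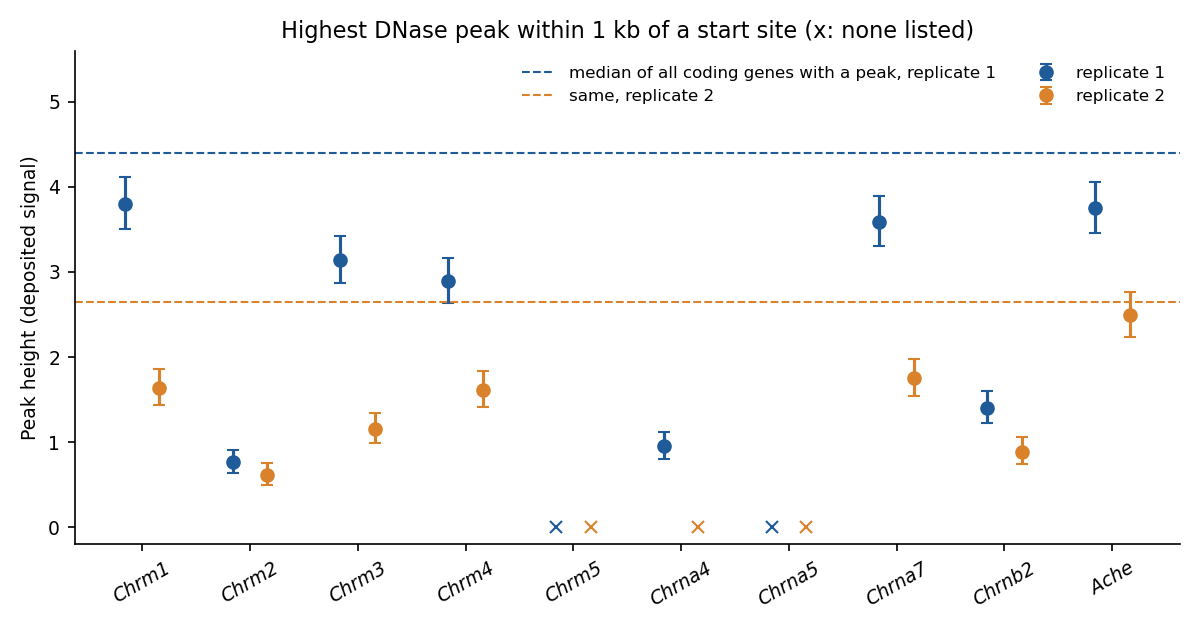
Height of the highest peak within 1 kb of a start site (y axis, deposited signal) for the 10 genes (x axis), with replicate 1 left of replicate 2; bars are 95% Poisson intervals of the cuts inferred, crosses mark genes with no listed peak, and dashed lines are medians of coding genes with a promoter peak. By GENCODE start sites, Chrm1, Chrm3, Chrm4, Chrna7 and Ache lie between 2.89 and 3.80 in replicate 1. They lie between 1.16 and 2.49 in replicate 2, and Chrm5 and Chrna5 have no peak.

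Chrm1 encodes the most abundant muscarinic receptor of the cortex (chr19:8663789-8683587, plus strand). It had 8 peaks in each library and 9 sites, of which 7 were listed in both. In replicate 1 its window held more peaks than 89.5% of coding gene windows, and in replicate 2 more than 94.7%. The highest peak at its start site lay 176 bp downstream of it in the first exon in replicate 1, with a height of 3.80 (95% interval 3.50 to 4.11), and in replicate 2 it was 1.64 (1.44 to 1.86). A pair of sites upstream of the gene was higher than the promoter, although the intervals of the nearer site and the promoter overlap in replicate 1 and those of the farther site and the promoter in replicate 2. The farther of them, at chr19:8661941-8662180 and 1609 bp upstream of the nearest GENCODE start site, reached 5.65 in replicate 1 and 1.77 in replicate 2, a ratio of 3.19 that was the largest among all member sites listed in both libraries. The nearer of the pair, at chr19:8662341-8662640, reached 3.88 in replicate 1 and 3.08 in replicate 2. The order of the pair was therefore different in the 2 libraries. A start site of another gene, AC025794.1, lies within 1 kb of the nearer site and of the promoter peak.

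The part of the farther site that both libraries listed is printed here because it is the highest Chrm1 site not at a start site of another gene. Capitals mark a GC box, the letters GGGCGG on either strand (chr19:8661941-8662160, plus strand, GRCm38.p6).
Chrm1 upstream site: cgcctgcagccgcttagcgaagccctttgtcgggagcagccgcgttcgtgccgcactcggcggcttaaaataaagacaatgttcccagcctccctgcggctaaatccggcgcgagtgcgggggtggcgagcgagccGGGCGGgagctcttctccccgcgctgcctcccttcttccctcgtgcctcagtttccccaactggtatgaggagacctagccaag
It held 22 CpG dinucleotides in 220 bases and was 64.5% G and C. The GC box occurred in 20.96% of all sites of the 2 libraries within 200 bp around their centres, so the match is common. The 1 kb around the Chrm1 gene start itself had an observed over expected CpG ratio of 0.191, against a median of 0.558 over coding genes.

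Chrm1 also had 2 sites with a CTCF match in a footprint. CTCF is a zinc finger protein known for holding the bases of chromatin loops. The first lay in the nearer upstream site, and the other in the last exon, in the 3′ untranslated region, at chr19:8683116-8683312 with heights of 1.70 in replicate 1 and 1.29 in replicate 2. Both footprints were found in both libraries. A start site of another gene, Gm22820, lies within 1 kb of the site in the last exon. The first intron held a site 1816 bp downstream of the start site (chr19:8665821-8666116) at 1.34 in replicate 1 and 1.34 in replicate 2, a ratio of 0.996. Of all sites listed in both libraries, 20.3% had a lower ratio.

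Chrm4, encoding the Gi-coupled M4 receptor, has a short gene model in GENCODE that holds only its coding exon (chr2:91927249-91928688, plus strand). RefSeq places its start site further upstream, at position 91922189. The site over that RefSeq start (chr2:91921806-91922220) was the highest of the gene, at 4.14 (3.83 to 4.47) in replicate 1 and 1.81 (1.60 to 2.04) in replicate 2. A start site of another gene, Gm10805, also lies within 1 kb of it. Within 1 kb of the GENCODE start the highest peak was inside the coding exon, 692 bp into it in replicate 1, at chr2:91927941-91928200. It was 2.89 in replicate 1 and 1.62 in replicate 2, and within 500 bp of the GENCODE start neither library listed a peak. Between the RefSeq start and the coding exon, in the region that RefSeq counts as intron, another site listed in both libraries (chr2:91925521-91925740) reached 3.83 (3.53 to 4.14) in replicate 1 and 1.73 (1.52 to 1.95) in replicate 2. The part listed in both libraries is printed because it was the highest Chrm4 site away from start sites of other genes, and it held none of the 16 patterns searched, so it has no capitals (chr2:91925561-91925706, plus strand, GRCm38.p6).
Chrm4 intron site: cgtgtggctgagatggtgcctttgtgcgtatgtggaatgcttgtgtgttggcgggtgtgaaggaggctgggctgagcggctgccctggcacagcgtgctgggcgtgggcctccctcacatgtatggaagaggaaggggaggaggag
Footprints lay in this site in both libraries, 6 in replicate 1 and 3 in replicate 2. A further shared site in the Chrm4 window (chr2:91936221-91936480) lay at a start site of the neighbour Dgkz, a diacylglycerol kinase, with heights of 2.80 and 1.47 in replicates 1 and 2. Of the 10 Chrm4 sites, the other 6 were listed in replicate 1 alone, with 1 of them, at 0.937, at a start site of the neighbour Mdk, a growth factor. The longer peak list of replicate 1 added 13 weak sites at Chrm4, with heights of 0.200 to 1.06, and that of replicate 2 added none.

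Chrm3, the Gq-coupled M3 receptor gene, is the longest of the set at 485362 bp (chr13:9875486-10360847, minus strand). It had 14 peaks in replicate 1 and 10 in replicate 2, more than 97.1% of coding gene windows in either library, but only 2.77 and 1.98 peaks per 100 kb of window in the same order. Its promoter site (chr13:10360868-10361100) was 3.14 (2.87 to 3.42) in replicate 1 and 1.16 (0.988 to 1.34) in replicate 2, a ratio of 2.71. Of its 19 sites, 4 were listed in both libraries, the promoter and 3 intron sites. The intron sites in 1 library alone were low, at heights of 0.487 to 0.787 in replicate 1 beyond 2 kb from the start site and 0.495 to 0.695 in replicate 2. The intron site nearest the coding exon was the highest of the intron sites in both libraries (chr13:9882401-9882600, 3403 bp upstream of the coding-exon start that GENCODE lists as a start site). Its height was 1.40 (1.22 to 1.59) in replicate 1 and 1.59 (1.39 to 1.81) in replicate 2. The ratio of 0.880 was the smallest among member sites in both libraries and the intervals overlap.
The site is printed on the gene's strand because its footprint was found in both libraries, and capitals mark a match of the AP-1 pattern TGANTCA, the letters bound by Fos and Jun dimers (chr13:9882421-9882580, minus strand, GRCm38.p6).
Chrm3 intron site: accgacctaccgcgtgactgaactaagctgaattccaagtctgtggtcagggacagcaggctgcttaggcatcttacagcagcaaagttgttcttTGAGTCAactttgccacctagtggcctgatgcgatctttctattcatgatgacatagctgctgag
A footprint of 35 bp covered at least 50% of the match in each library, at 9882454 to 9882488 in replicate 1 and 9882448 to 9882482 in replicate 2. The AP-1 pattern was in 9.67% of all sites.

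Chrm2, the Gi-coupled M2 receptor gene (chr6:36388084-36528414, plus strand), had the lowest promoter peak of the genes with one in both libraries. The heights were 0.762 (0.633 to 0.910) in replicate 1 and 0.612 (0.492 to 0.753) in replicate 2, above only 4.10% of coding promoter peaks in replicate 1 and 3.51% in replicate 2. A start site of another gene, 9330158H04Rik, lies within 1 kb of this promoter site. The highest Chrm2 site lay instead in an intron, 49826 bp downstream of the nearest start site (chr6:36438021-36438380), at 1.22 (1.05 to 1.40) in replicate 1 and 0.998 (0.842 to 1.17) in replicate 2. Another intron site in both libraries (chr6:36517375-36517500) was 0.556 in replicate 1 and 0.454 in replicate 2. The ratios of the 3 shared Chrm2 sites, 1.22 to 1.24, were closer to each other than those of any other member with 3 or more shared sites. The intron site is printed because it was higher than the promoter in both libraries, and capitals mark its AP-1 match, which lay in no footprint (chr6:36438041-36438300, plus strand, GRCm38.p6).
Chrm2 intron site: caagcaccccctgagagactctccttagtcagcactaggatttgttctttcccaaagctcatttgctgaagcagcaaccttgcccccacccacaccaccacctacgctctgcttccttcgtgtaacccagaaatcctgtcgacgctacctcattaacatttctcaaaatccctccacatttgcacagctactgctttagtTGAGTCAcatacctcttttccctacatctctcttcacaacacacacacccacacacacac
In this sequence 4 CpG dinucleotides were counted in 260 bases, against 22 in the 220 bases of the Chrm1 upstream site.

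Chrm5, the M5 receptor gene best known from dopamine neurons of the midbrain, had no peak in its window in either library (chr2:112479171-112480769, minus strand). Of all coding genes, 78.4% had a peak in the gene body plus 10 kb in replicate 1 and 76.7% in replicate 2, and 8 and 7 of the 10 members had one in these libraries. No base within 1 kb of the Chrm5 start site was listed at a false discovery rate under 0.05 in either library. GENCODE lists this start site alone, for a gene model of 1599 bp, and RefSeq places the start close by, at position 112480817. A promoter farther away than the 10 kb flanks was not examined. The longer list held 1 weak Chrm5 site in both libraries (chr2:112483121-112483300), 2352 bp upstream of the start, at 0.631 in replicate 1 and 0.447 in replicate 2. A second weak site, 5149 bp downstream of the start at 0.660, was in replicate 2 alone. Sites below the authors' threshold are not listed, so no Chrm5 peak of the shorter list was detectable at this depth.

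The nicotinic genes had fewer sites than the muscarinic ones other than Chrm5. Chrna7 (chr7:63098692-63212569, minus strand) had a single site in both libraries, at its start (chr7:63212461-63212720), with 3.59 (3.30 to 3.90) in replicate 1 and 1.75 (1.54 to 1.98) in replicate 2. Its other peak, 0.824 in replicate 1 alone, lay in the first intron next to the promoter. The promoter is rich in CpG, with an observed over expected ratio of 0.813 in the 1 kb around the gene start, the highest of the 10 genes, followed by Chrm3 at 0.751. The printed part ends just before the RefSeq start site, and capitals mark a GC box, which was in a footprint in replicate 1 (chr7:63212527-63212700, minus strand, GRCm38.p6).
Chrna7 promoter site: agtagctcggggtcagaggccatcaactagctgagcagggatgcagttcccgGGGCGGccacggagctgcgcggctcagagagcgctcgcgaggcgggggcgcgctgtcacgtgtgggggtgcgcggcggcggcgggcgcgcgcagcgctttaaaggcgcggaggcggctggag
In this sequence 25 CpG dinucleotides lay in 174 bases, and 73.6% of bases were G or C.

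Chrna4 (chr2:181018380-181043546, minus strand) was the only member whose sites were all listed in 1 library. Its 4 sites were in replicate 1, the highest at the RefSeq start site with 0.949 (0.804 to 1.11), and the others at 0.943, 0.849 and 0.768. Replicate 2 listed no peak in the window, and no base within 1 kb of a Chrna4 start site was listed at a false discovery rate under 0.05 there. In replicate 2 the longer list held 1 weak site, 3355 bp upstream of the nearest GENCODE start site, at 0.475.

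Chrna5 (chr9:54980880-55007779, plus strand) had no listed peak in either library. The longer list of replicate 1 held 2 weak sites beside its start sites, at 0.406 and 0.462, where 311 bases were listed at a false discovery rate under 0.05, the lowest being 0.0122. Replicate 2 had no such base there and 1 weak site 22158 bp downstream of the start sites, at 0.392. No weak Chrna5 site was in both libraries.

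Chrnb2, whose beta2 subunit pairs with alpha4 (chr3:89746195-89764632, minus strand), had 3 sites in both libraries and none in 1 library alone. Its own promoter site (chr3:89764301-89764700) was the lowest of the 3, at 1.40 (1.22 to 1.59) in replicate 1 and 0.887 (0.741 to 1.05) in replicate 2. It held the only match in a member site of the RE1 pattern of REST, a repressor that keeps neuronal genes silent outside neurons. An RE1 match was in 0.0729% of all sites. The match with 3 bases on either side is shown with the matched letters in capitals, in the 5′ untranslated region (chr3:89764455-89764477, minus strand, GRCm38.p6).
Chrnb2 RE1 match: ggcTTCAGCACCACGGACAGcgc
The match was inside the peak of replicate 1 and outside that of replicate 2, which spans 95 bp at positions 89764584 to 89764678, and no footprint overlapped it. The other 2 sites, 7989 and 8569 bp upstream, lay at start sites of the neighbour Ube2q1, a ubiquitin-conjugating enzyme gene. They were 2.90 and 8.52 in replicate 1 and 1.58 and 6.46 in replicate 2, so the highest peak counted in the windows of all 10 genes belongs to a neighbour's start site.

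Ache, the enzyme gene (chr5:137287519-137294466, plus strand), had 8 peaks in replicate 1 and 4 in replicate 2. Both libraries listed 4 of its 8 sites, and 3 of these were away from start sites of other coding genes. The highest of the 3, 539 bp upstream of the first GENCODE start site (chr5:137286761-137286980), had the same borders in both libraries and heights of 3.75 (3.45 to 4.06) in replicate 1 and 2.49 (2.24 to 2.76) in replicate 2. The site over the first start site (chr5:137287061-137287600) was 3.02 in replicate 1 and 1.49 in replicate 2. RefSeq places the start farther downstream, at position 137288254. The site over that RefSeq start (chr5:137288201-137288780) was 1.49 in replicate 1 and in neither list of replicate 2. A site near the 3′ end, in an intron of the GENCODE model (chr5:137293341-137293600) was 3.01 in replicate 1 and 1.26 in replicate 2, and a start site of the microRNA gene Mir8116 lies within 1 kb of it. The other shared site, at 5.85 in replicate 1 and 4.23 in replicate 2, lay at a start site of the neighbour Ufsp1, a protease of the UFM1 pathway. The 4 sites in replicate 1 alone included 2.40 at chr5:137288981-137289360, the highest member site that 1 library alone listed, and the longer list of replicate 2 had that site too. The upstream site is shown with a NeuroD-type E-box (CAGATG, in 20.3% of all sites) and a GC box in capitals, in that order (chr5:137286761-137286980, plus strand, GRCm38.p6).
Ache upstream site: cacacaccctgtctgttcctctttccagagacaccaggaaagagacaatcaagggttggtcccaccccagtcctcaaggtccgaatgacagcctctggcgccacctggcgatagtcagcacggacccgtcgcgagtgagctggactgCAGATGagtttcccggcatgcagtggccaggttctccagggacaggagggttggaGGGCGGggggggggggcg
In the site over the first GENCODE start site, a footprint in both libraries held the only EGR match of the member sites. The match is the letters GCGTGGGCG on the minus strand. EGR proteins are zinc finger factors induced by neuronal activity. The pattern was in 0.469% of all sites. The footprint is given over its whole extent in the 2 libraries, with the match in capitals as read on the plus strand (chr5:137287262-137287280, plus strand, GRCm38.p6).
Ache EGR footprint: CGCCCACGCagcagcggcc
By height at a start site in the 2 libraries, the coding genes nearest to Ache were Gadd45a (3.71 in replicate 1 and 2.51 in replicate 2), Arpp19 (3.69 and 2.50) and Arhgef2 (3.75 and 2.54), with likeness measured as the sum of absolute log2 differences over 2 libraries (0.0264, 0.0282 and 0.0300).

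**Figure D2:**
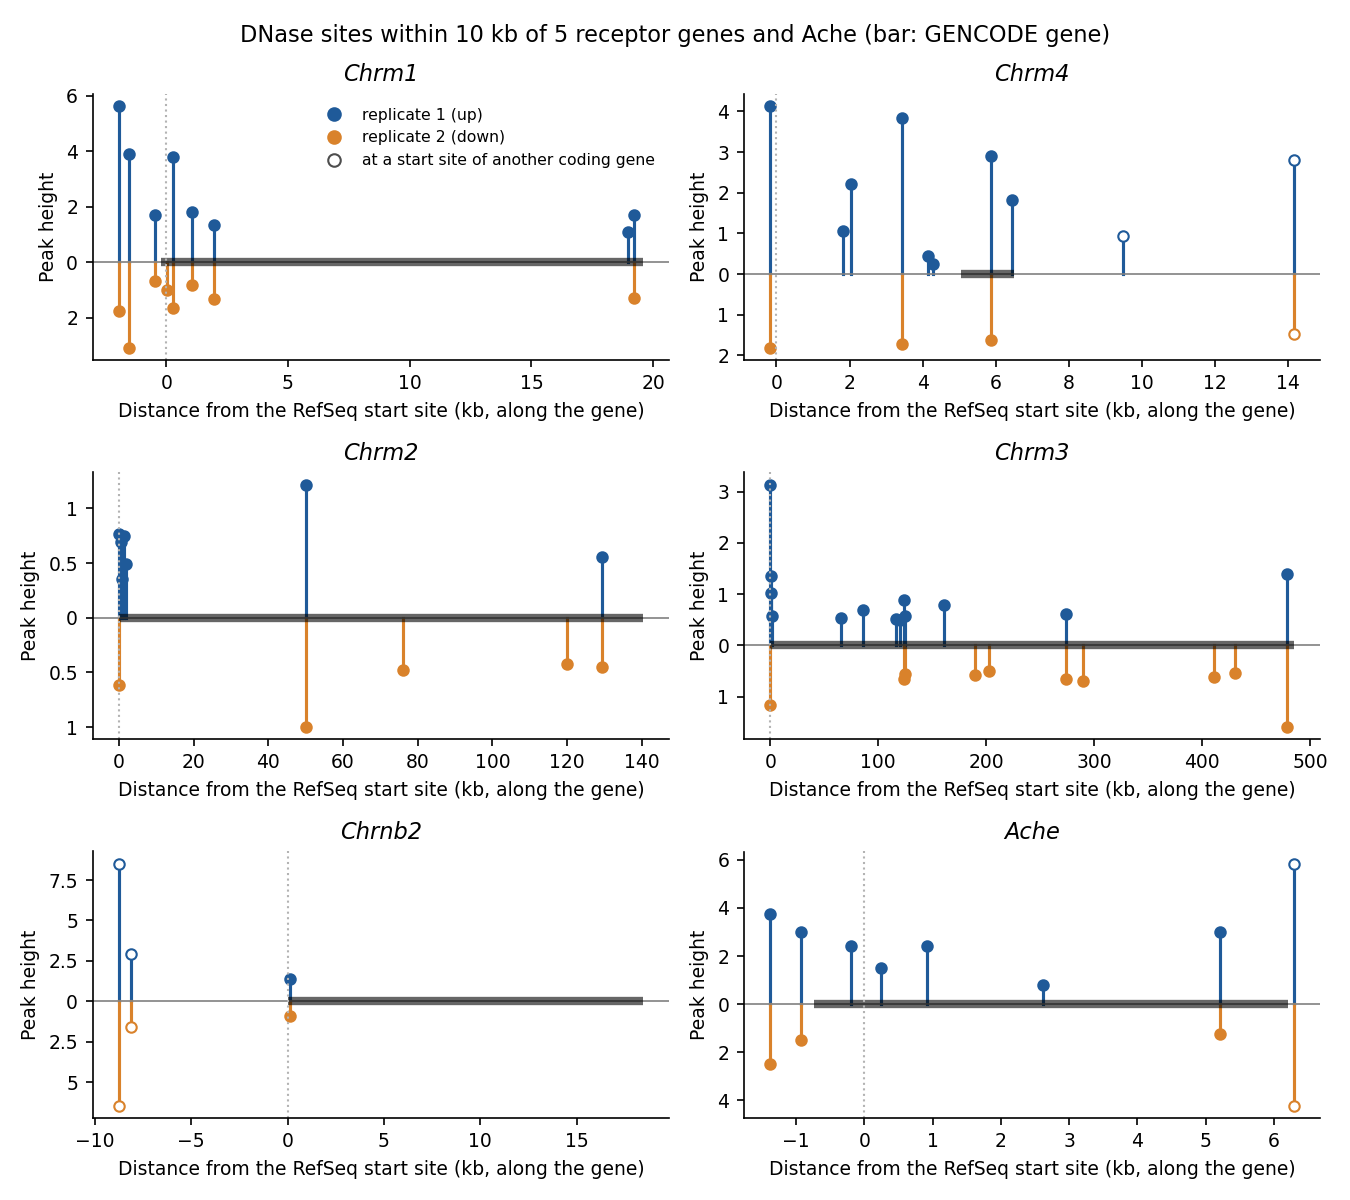
Sites within 10 kb of 6 of the genes by distance of the site's centre from the RefSeq start site (x axis, kb along the gene) with peak height in replicate 1 upward and in replicate 2 downward (y axis, deposited signal); the bar is the GENCODE gene and open points are sites at a start site of another coding gene. Chrm1 sites cluster around its start and recur at its 3′ end, Chrm3 sites are spread over 485362 bp, and the highest points at Chrnb2 and Ache, 8.52 and 5.85 in replicate 1, are open.

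Footprints inside the member peaks numbered 127 in replicate 1 and 87 in replicate 2, which is 9.49 and 12.9 per kb of peak, against 11.5 and 13.3 per kb over all peaks of the same libraries. Their median width was 9 bp in replicate 1 and 10 bp in replicate 2, with a range of 7 to 35 bp in both. Of the member footprints, 36.2% in replicate 1 overlapped a footprint of replicate 2, and 41.4% in replicate 2 overlapped one of replicate 1, against 44.4% and 51.8% for footprints in all peaks. A pattern covered to at least 50% was found in 17 member footprints of replicate 1 (13.4%) and 13 of replicate 2 (14.9%). The share over all footprints was not computed, so these counts have no background to be read against. The 5 sites whose footprints held a CTCF match are printed on the strand of the match, with the match in capitals. Each is given over the footprint's extent in the libraries. The sites were picked by this match, so their common core is not a result.
Chrm1 upstream, chr19:8662522-8662555, plus strand: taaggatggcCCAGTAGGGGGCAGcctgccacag
Chrm1 3′ untranslated region, chr19:8683234-8683257, minus strand: aattgCCAGCAGGTGGCGCtaaaa
Chrm4 before the RefSeq start, chr2:91921878-91921894, plus strand: cCCGCGAGGGGGCGCct
Chrm4 coding exon, chr2:91928000-91928037, plus strand: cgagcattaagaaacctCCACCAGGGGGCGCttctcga
Chrnb2 upstream at Ube2q1, chr3:89772723-89772745, minus strand: tcgttcCCACTAGGTGGCACtat
Both libraries had a footprint at these places except at the site before the RefSeq start of Chrm4, which had one in replicate 1 alone. A CTCF match within 200 bp around the site centre was in 4 of the 64 member sites and in 6.93% of all sites, and among sites listed in both libraries in 4 of 26 member sites and 9.76% of all. The match before the Chrm4 start lies outside those 200 bp and is not in this count. A match of letters is a description and does not show that the protein was bound. No member site held a match of the MEF2, NRF1, NFI, RFX, CRE (TGACGTCA), YY1 (AANATGGCG) or POU (ATGCAAAT) patterns in that window.

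Between the animals, 26 of the 64 sites (40.6%) were listed in both libraries, 29 in replicate 1 alone and 9 in replicate 2 alone. Over the whole genome 52.5% of 83641 sites were listed in both. By place, 12 of 16 upstream sites, 8 of 31 intron sites, 3 of 11 exon sites, 1 of 3 coding exon sites and 2 of 3 downstream sites were in both, and the shares by place over all sites were not computed. Place follows the GENCODE gene model. Chrm4 sites between the RefSeq start and the coding exon, with the shared site printed above as an intron site, therefore count as upstream. The shorter list of replicate 2 holds fewer peaks, and 9 of the 29 sites missing from it were in its longer list, as were 4 of the 9 missing from the shorter list of replicate 1. Sites in both libraries had a median height of 2.89 in replicate 1 and 1.48 in replicate 2, and those in 1 library alone had 0.787 and 0.557 in these libraries. At 23 of the 26 shared sites the height was greater in replicate 1, and the median ratio of replicate 1 over replicate 2 was 1.68. Over all 43925 sites listed in both, 79.5% were greater in replicate 1 and the median ratio was 1.38. With each library's heights divided by its own median over those sites, the members' median log2 ratio was 0.24, against 0.75 as deposited. The exceptions with greater height in replicate 2 were the Chrm1 intron site and 2 Chrm3 intron sites. The second Chrm3 site (chr13:10086395-10086580) had 0.612 in replicate 1 and 0.654 in replicate 2. At each of these exceptions the 95% intervals of the libraries overlap. They also overlap at the Chrm2 promoter site, which was higher in replicate 1.

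**Figure D3:**
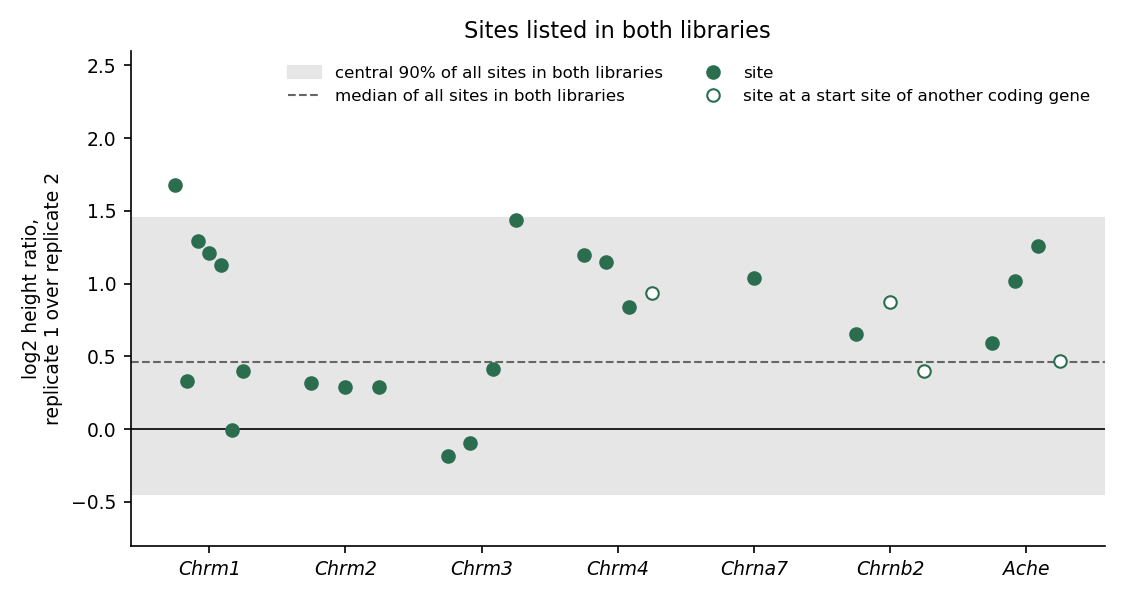
Log2 ratio of peak height, replicate 1 over replicate 2 (y axis), for the 26 sites listed in both libraries, by gene (x axis); open points are sites at a start site of another coding gene, the dashed line is the median of all 43925 sites listed in both and the band their central 90%. The Chrm1 upstream site at a log2 ratio of 1.68 lies above the band and the other 25 sites lie within it.

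The rest of the cholinergic pathway was read from a list of 32 genes. A promoter peak was found at 17 of them, the same genes in both libraries (53.1%), against the 57.7% of all coding genes with one in both, but the groups within the list were unlike each other. None of Chat, Slc18a3 and Slc5a7, which make acetylcholine, load it into vesicles and take up its precursor choline, had a promoter peak in either library. Of 5 markers of cholinergic neurons, which include these 3, Isl1 alone had a promoter peak, at 0.757 in replicate 2. Of the other genes of synthesis, transport and breakdown, Bche, a related esterase, had 0.550 in replicate 1 and 0.468 in replicate 2, and Prima1, which anchors acetylcholinesterase in neuronal membranes, had 1.90 and 0.798. Of 12 further nicotinic subunit genes 1 had a promoter peak, Chrnb1 of the muscle receptor, at 2.72 in replicate 1 and 3.93 in replicate 2. With RefSeq start sites added, Chrna9 also had one, at 0.468 in replicate 1 and 0.791 in replicate 2, and so did Colq of the synthesis, transport and breakdown list, at 1.19 in replicate 1 and 0.619 in replicate 2. Chrna1, Chrna10 and Chrna2 were the first without one in alphabetical order under either set of start sites. All 6 genes for chaperones and modulators of nicotinic receptors had a promoter peak in both libraries. Ric3, a chaperone of alpha7, was the highest of them at 5.70 in replicate 1 and 2.90 in replicate 2.

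Of 8 genes that carry muscarinic signals onward, all had a promoter peak in both libraries. Gna11, a Gq-family subunit, was the highest of the 32 genes at 10.9 in replicate 1 and 6.85 in replicate 2. Gnao1, the Go subunit used by M2 and M4, followed Ric3 in mean height with 5.02 in replicate 1 and 1.78 in replicate 2. The potassium channel genes Kcnj3 and Kcnj6, whose channels Gi and Go open, had 2.85 and 3.35 in replicate 1 and 1.71 and 1.36 in replicate 2.

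**Figure D4:**
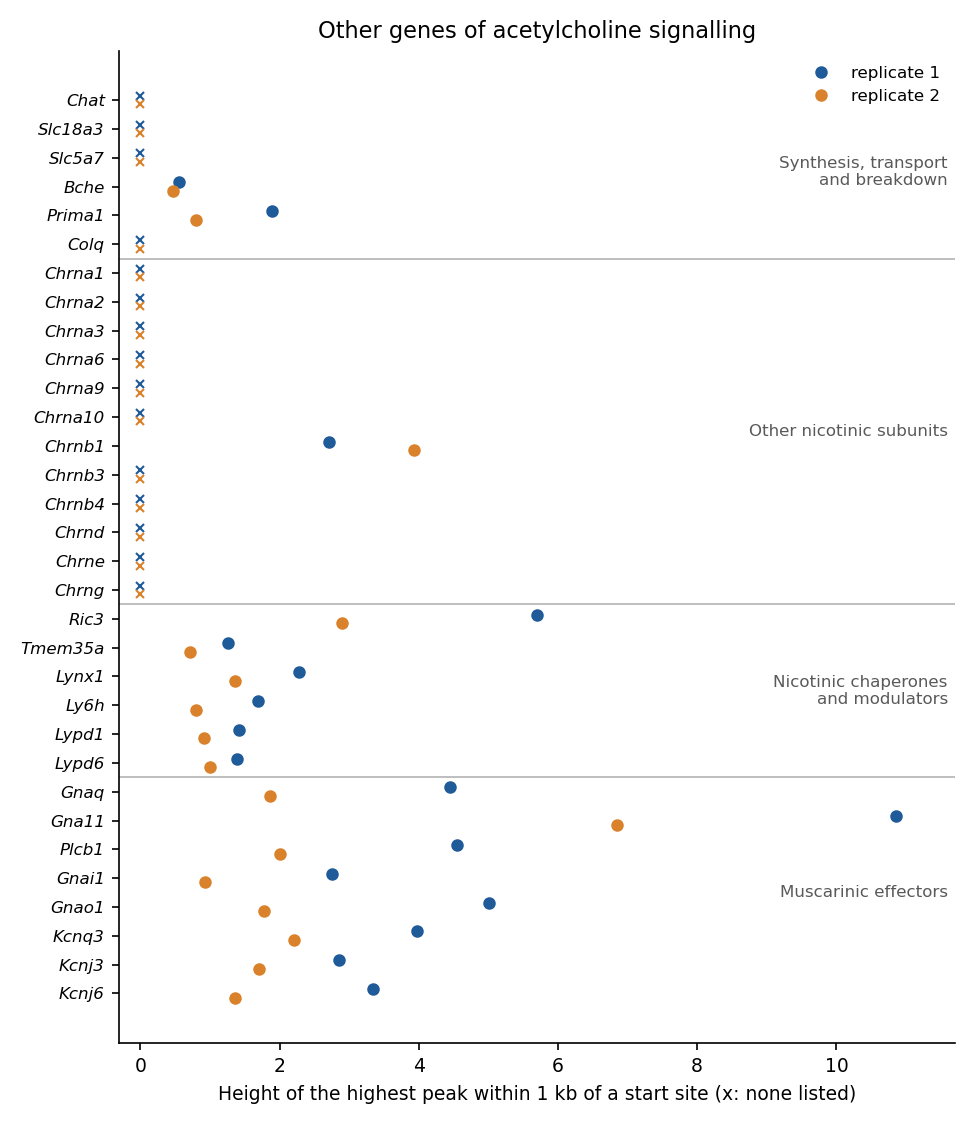
Height of the highest peak within 1 kb of a start site (x axis, deposited signal) for 32 further genes of acetylcholine signalling (y axis), in 4 lists, with replicate 1 drawn above replicate 2 and crosses for genes with no listed peak. By GENCODE start sites, crosses fill the list of other nicotinic subunits apart from Chrnb1, while all 6 chaperones and modulators have points in both libraries.

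The members had more peaks per gene window than coding genes at the median. The median was 5.5 peaks per member in replicate 1 and 3.5 in replicate 2, against 2 per coding gene in each library. In gene bodies alone the members' median, averaged over the libraries, was 2, against 4.5 with the 10 kb flanks. Window lengths differ, and per 100 kb of window the medians were 6.09 and 2.55 for the members and 4.46 and 3.87 for coding genes in replicates 1 and 2, so the members' median was above that of coding genes in replicate 1 and below it in replicate 2. By this measure Chrm4 (46.6 in replicate 1 and 23.3 in replicate 2), Ache (29.7 and 14.8) and Chrm1 (20.1 in each) had the densest windows. Of the 64 member sites, 5 lay at a start site of another coding gene alone, 4 of them in both libraries.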

How the data were processed

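For each of the 2 cortex libraries the authors deposited 2 peak lists, false discovery rates of the cut rate by base, and footprints, all on mm10, per the deposited file list. Which aligner, peak caller and thresholds the authors applied is not given in the sources used here. Peak height, a deposited signal, was read as cuts scaled to library depth, since all heights lay within 0.05 of a whole multiple of 1 step. The deposited false discovery rate is an adjusted p-value (q-value) listed up to 0.05, and the deposited footprint score, 0.01 throughout, was not used. The shorter peak list was the main one and the longer list (125119 peaks in replicate 1 and 103840 in replicate 2) shows weak sites.

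Peaks within 10 kb of a gene body were taken, with GENCODE M21 genes and RefSeq start sites, on chromosomes 1 to 19 and X. Some peaks of a list overlap, and peaks are counted as listed, while footprints and sites are counted once. The height at a start site is the highest peak within 1 kb of any start site, and 0 means no listed peak. Sequences are from GRCm38.p6, and start sites from RefSeq were also used for Chrm4. In all, 16 patterns were searched as exact matches on both strands, in 200 bp around site centres and in footprints covering at least 50% of a match. Patterns longer than 9 letters are named only. Overlap, merging and pattern search were tested on simulated data. Named items were all 10 genes, their sites in both libraries, the highest site away from start sites, and among pathway genes the 3 highest and 3 without a peak. A gene of the pathway list is not reported here and is left out of its counts. The members and lists were chosen with earlier results of these data known. Python 3.11.15, NumPy 2.4.6, pandas 2.3.3, pysam 0.24.0 and matplotlib 3.10.9 were used. Reads from the 2 parental genomes of the hybrid were not separated here.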

Additional observations from a re-analysis of the deposited data

How the results depend on the processing

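Counts of members and of pathway genes with a promoter peak stayed within 1.5 times their reported values, 7.5 and 17 as means of the 2 libraries, under every alternative run. These alternatives were windows of 500 and 2500 bp, the longer list, the higher 50% of peaks, midpoints, each library alone, and RefSeq start sites, the last chosen after seeing the data. Mean peaks in member windows (46) came to 84.5 with 50 kb windows, 75 with the longer list and 24.5 with the higher 50% of peaks, and 36 to 56 without either replicate. The median per member (4.5) came to 2 in gene bodies alone, 8.25 with 50 kb windows and 1.75 with the higher 50% of peaks. Sites in both libraries (26) came to 17, 55 and 45 in gene bodies alone, with 50 kb windows and with the longer list. Footprints (107 as a mean) came to 69.5 in gene bodies alone. The median log2 height ratio (0.75) came to 0.24 with heights divided by the median of shared sites. Heights at start sites moved by more than 1 SD for Chrm1 (4.36 with 2500 bp, which takes in the upstream sites) and Chrm4 (0 with 500 bp). Dividing heights by each library's median over shared sites (1.66 and 1.17 in replicates 1 and 2) changes their unit and lowers every height above 0. The scaled means of Chrm2 and Ache (0.491 and 2.19) fell more than 1 SD below those reported. That comparison mixes units, so it does not show that these heights depend on the processing. Ache stayed above Chrm1 (1.84) after scaling. Leaving out a replicate gives the other library's own height, from 0 to 0.949 for Chrna4 and from 1.16 to 3.14 for Chrm3, and with 2 libraries such a change cannot exceed 1 SD, so it is no test of stability. Sites in both libraries and the height ratio need both animals, so no value exists without either. No paired analysis was possible because the samples form a single group. With 2 libraries, SDs rest on 1 difference each. Absence from a list means only that no peak passed the authors' threshold at this depth.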

Other observations

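Beyond exact matches, the Chrm3 intron site and the Ache upstream site each had a footprint in both libraries that held the CTCF pattern with 1 of its 14 letters different. This was looked for after the Chrm3 footprint had been seen, so it is a description. At Chrm3 the footprint, printed on the gene's strand with the AP-1 match in capitals, covers chr13:9882448-9882488 over the 2 libraries (minus strand, GRCm38.p6), and the near match follows the capitals.
Chrm3 intron footprint: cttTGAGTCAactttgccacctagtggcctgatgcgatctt
Counting matches wholly inside a footprint with at most 1 letter different, 7 of 25 member footprints long enough to hold the pattern had one in replicate 1 (28.0%) and 5 of 21 in replicate 2 (23.8%). Over all footprints of that length inside peaks, the shares were 16.3% of 45754 in replicate 1 and 15.9% of 47239 in replicate 2. Footprints at 1 place in the 2 libraries are counted once in each. The Chrm3 footprint that prompted the search is counted in both libraries, so the members' shares are no test against those of all footprints.

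The weak sites, those of the longer lists that overlap no site of the shorter lists, numbered 45 in the 10 windows, of which 5 were in both libraries, 31 in replicate 1 alone and 9 in replicate 2 alone. Of these 5, 3 lay within Chrm3, 1 within Chrm2 and 1 upstream of Chrm5. Of the 56 shorter-list peaks of replicate 1 in the windows, 4 overlapped no peak of the longer list of the same library, and of the 36 in replicate 2 none did.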
